A study of Mus musculus with 6 samples.

Results

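The receptors, kinases, transcription factor and inhibitors through which liver cells answer interleukin 6 were measured by their transcripts in mouse liver with and without Dnajb4, the gene of the heat shock protein HLJ1. The members are the receptor genes Il6ra, Il6st, Osmr and Lifr, the Janus kinase genes Jak1, Jak2 and Tyk2, the transcription factor gene Stat3, and the inhibitor genes Socs1 and Socs3. They were chosen by name, through the probe sets that carry the symbol of a member and no other. A probe set is several short oligonucleotides that together read 1 stretch of a transcript. This gave 27 of 45037 probe sets and 10 of 18193 genes, and no member was without a probe set. Livers came from 3 Dnajb4+/+ (HLJ1+/+) and 3 Dnajb4-/- (HLJ1-/-) mice, all labelled as male C57BL/6 mice, aged 6 to 8 weeks and not treated with any agent. The Dnajb4-/- line was made by gene targeting in embryonic stem cells, so the deletion is not limited to hepatocytes, and 1 Affymetrix Mouse Genome 430 2.0 array is labelled for each mouse.

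Cytokines of the IL-6 family bind a specific receptor chain, such as that encoded by Il6ra, Osmr or Lifr, which pairs with the shared signal chain gp130, the product of Il6st. Janus kinases held by these receptors then phosphorylate STAT3, which enters the nucleus and switches on its target genes. Among these targets are Socs3, whose product shuts the receptor down, and in hepatocytes the genes of the acute phase proteins of the blood. The step from an idle to an active STAT3 is a phosphorylation, which an expression array does not read.

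The values are the authors' GCRMA intensities on a linear scale, with array medians of 31.8 to 32.5. After taking log2, all probe sets of a gene were averaged, and the genotypes were compared with limma over all genes or all probe sets, at a Benjamini-Hochberg adjusted p under 0.05. Precision is limited by the number of arrays. For Dnajb4 itself, the brightest probe set fell from 589 ± 23.5 to 466 ± 13.6 in Dnajb4-/- livers (SD, n = 3; adjusted p = 0.0100). The mean over its probe sets did not pass (-0.14, adjusted p = 0.145), and where they lie relative to the deletion was not analysed here, so this does not check the labels. The Dnajb4+/+ arrays did not match their male label alone. Xist, the RNA that silences an X chromosome in female cells, read 364 to 402 in them against 14.3 to 17.1 in the Dnajb4-/- arrays, while Eif2s3y, Kdm5d and Uty of the Y chromosome lay at 77.9% to 102% of their mean Dnajb4-/- level. All 3 Dnajb4+/+ arrays share this, so no comparison without them can be made, and genotype and the sex of the RNA cannot be told apart. The p-values measure only the spread between these arrays. The ratio of 3' to 5' signal of Gapdh, a sign of RNA integrity, was 1.16 to 1.19 in Dnajb4+/+ and 1.43 to 1.48 in Dnajb4-/- arrays. That of Actb was 2.59 to 2.68 in Dnajb4+/+ and 3.10 to 3.22 in Dnajb4-/- arrays. Hepatocyte markers such as Alb and Ttr were bright in every array. The summed level of 12 markers was 126191 to 126208 in Dnajb4+/+ and 125443 to 126599 in Dnajb4-/- livers. The brightest markers, such as Alb and Ttr, lead this sum, so it says little about the dimmer ones. Of the 12, 3 were called higher and 1 lower, where 5.09% of all genes were called higher and 9.57% lower.

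At the level of genes, Lifr was higher and Socs3 was lower in Dnajb4-/- livers, and the other 8 members did not pass the test. Of all genes, 5.09% were called higher and 9.57% lower, together 14.7%, so 2 called members of 10 is a share near this background. The median log2 difference of the members was -0.035, against 0.0075 over all genes. In 6 members the values of the genotypes did not overlap, 2 higher and 4 lower, which was also the case for 35.5% of all genes. By unadjusted p-values 4 members lay under 0.05, as did 5370 of all 18193 genes. After adjustment, the methods' t-test called 2 members and 2038 of all genes. This is the equal-variance test of the study's general statistics, which its methods do not name for the arrays. It was applied here to each gene.

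**Figure D1:**
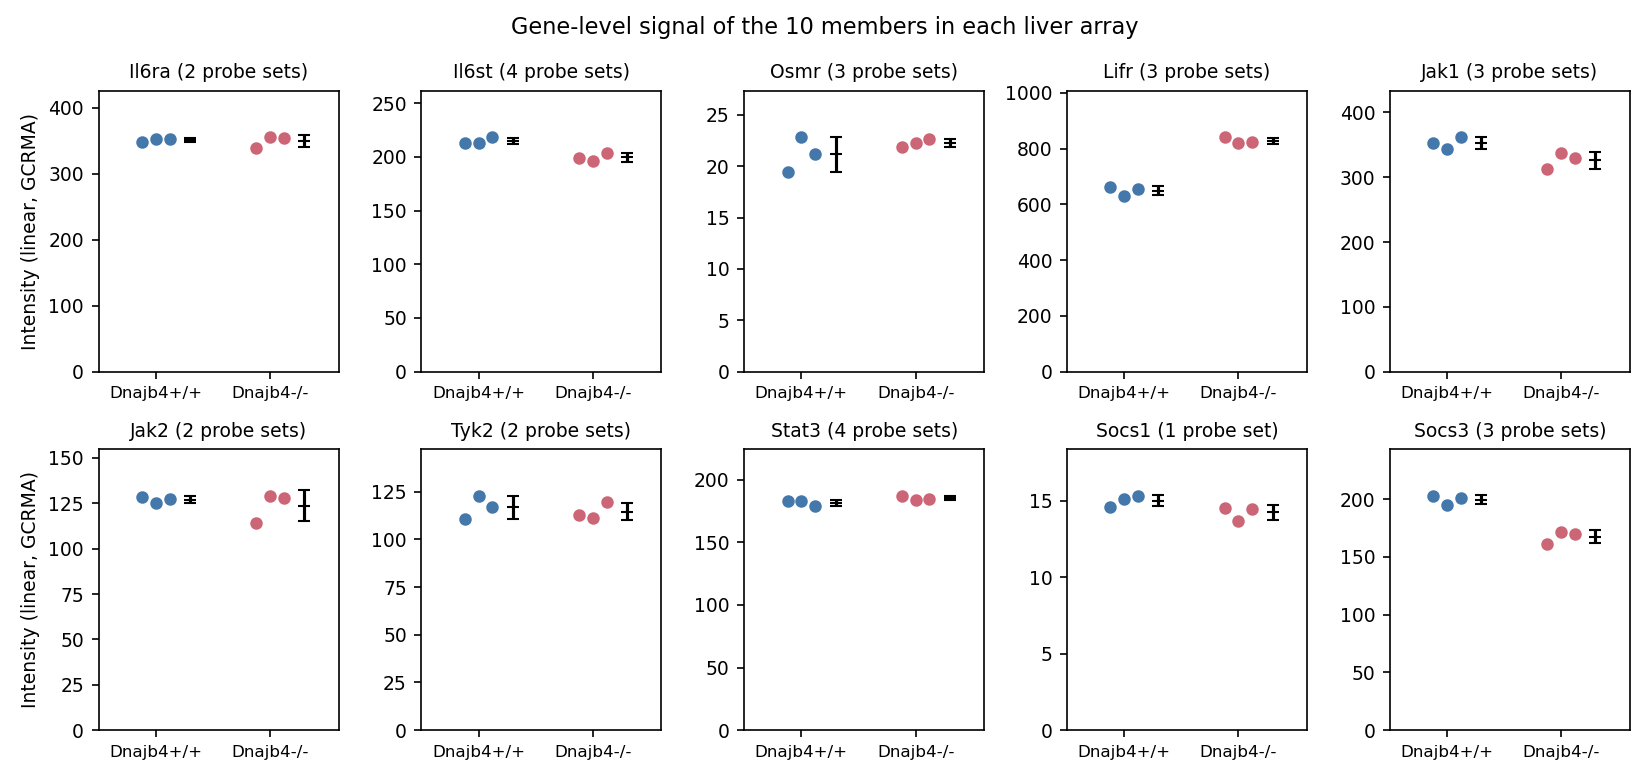
Gene-level intensity of each member (y axis, linear GCRMA scale, averaged over the probe sets on the log2 scale) in the 3 Dnajb4+/+ arrays (blue) and the 3 Dnajb4-/- arrays (red), with the mean and SD beside the points. Lifr lies at 630 to 662 in Dnajb4+/+ and at 820 to 841 in Dnajb4-/- livers, Socs3 at 195 to 203 and 162 to 171, and Stat3 at 179 to 183 and 184 to 187.

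At the level of probe sets, 5 of the 27 were called, 2 of Lifr as higher and 1 each of Il6st, Jak1 and Socs3 as lower. Of all probe sets 10.4% were called, 3.91% as higher and 6.51% as lower. The genotypes did not overlap in 13 of the 27, 5 higher and 8 lower, against 32.4% of all probe sets. Different probe sets of the same gene often gave different answers. Of the 9 members with more than 1 probe set, 4 had probe sets whose genotype differences were not alike (limma's diffSplice, an F test per gene over 9010 genes, of which 15.9% were called). These were Lifr (adjusted p = 1.12e-04), Il6st (0.00109), Stat3 (0.00173) and Jak1 (0.00267). This test was added after the values of the probe sets had been seen.

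**Figure D2:**
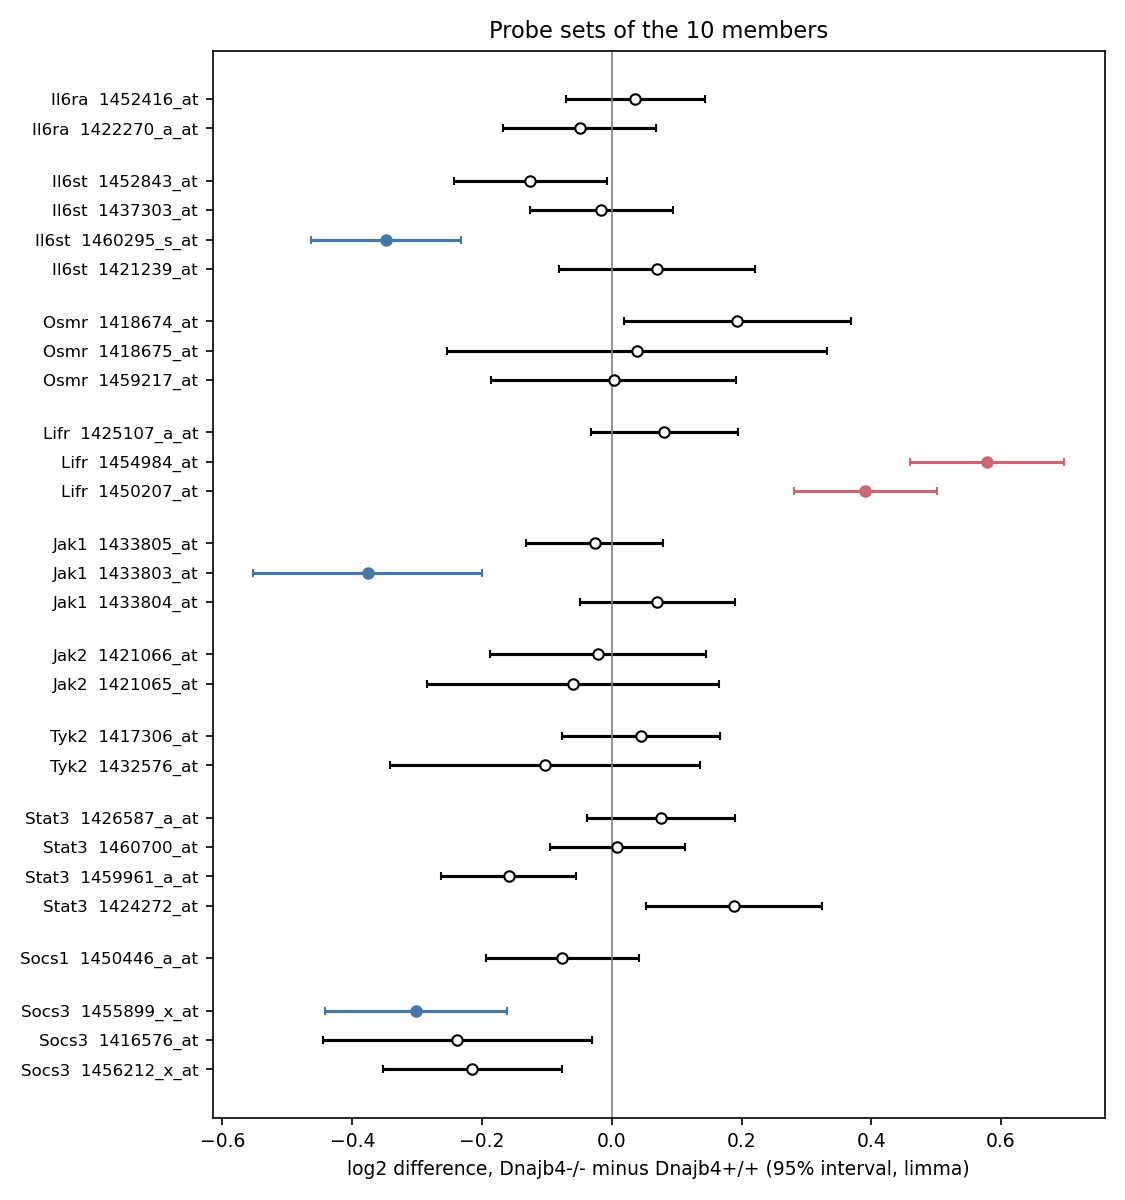
Log2 difference of each of the 27 probe sets (x axis, Dnajb4-/- minus Dnajb4+/+) with its 95% interval from limma, grouped by gene and ordered by brightness. Filled red points were called higher, filled blue points lower, and open points were not called. The called probe sets run from Jak1 at -0.38 and Il6st at -0.35 to Lifr at 0.58, and the 3 of Socs3 all lie below 0.

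Lifr, on chr15:7090610-7197489 of GRCm38.p6, encodes the receptor chain that binds leukemia inhibitory factor and also serves cardiotrophin 1. Averaged over its 3 probe sets, it read 662, 630 and 656 in the Dnajb4+/+ arrays and 841, 820 and 824 in the Dnajb4-/- arrays. All Dnajb4-/- arrays lay above all Dnajb4+/+ arrays, and the gap was wider than the spread within a genotype. This was a rise of 27.5%, or 0.35 in log2 with a standard error of 0.04 (adjusted p = 0.00168). It stayed past the threshold without any single array, where the highest adjusted p was 0.00967.

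The rise of Lifr differed between its probe sets. Probe set 1454984_at read 1196, 1107 and 1152 in Dnajb4+/+ and 1758, 1705 and 1696 in Dnajb4-/- livers, which is 0.58 higher in log2, with a standard error of 0.05 (adjusted p = 0.00107). The dimmest, 1450207_at, read 62.6, 60.6 and 63.1 and then 82.9, 82.1 and 79.3, a log2 rise of 0.39 with a standard error of 0.05 (adjusted p = 0.00355). The brightest, 1425107_a_at, read 3884, 3732 and 3886 and then 4079, 3936 and 4153, a log2 difference of 0.08 (95% interval -0.03 to 0.19, adjusted p = 0.340). Each of them had all Dnajb4-/- arrays above all Dnajb4+/+ arrays, but the size of the rise ranged from 5.77% to 49.3%. With the brightest probe set in place of the mean, Lifr did not pass (adjusted p = 0.231). On its own, 1425107_a_at passed in 2 of the 14 alternatives run for probe sets, both with an intensity trend. The ending _a_at marks a probe set that reads several transcripts of a gene. For each member whose probe sets differed, the probe set with the difference farthest from 0 was set over the one at the other end. Within an array, the ratio of 1454984_at to 1425107_a_at rose from 0.300 ± 0.0065 to 0.424 ± 0.0137 (SD, n = 3). As the pair was picked by its differences in these arrays, this rise is a description only. It does not show that either transcript stayed the same.

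The RefSeq promoter table used here holds a pair of start sites for Lifr, and the 120 bases upstream of each are shown because the gene's probe sets differed and these starts are of contrasting composition. Both lie inside the gene span given above, 38962 and 49932 bases from its 5′ end, and the sequence before that end was not analysed here. Capitals mark each CG dinucleotide, and both sequences run 5′ to 3′ on the plus strand of GRCm38.p6.
Lifr, chr15:7129452-7129571: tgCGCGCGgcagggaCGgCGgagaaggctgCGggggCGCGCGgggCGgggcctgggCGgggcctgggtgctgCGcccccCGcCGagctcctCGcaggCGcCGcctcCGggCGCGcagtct
Lifr, chr15:7140422-7140541: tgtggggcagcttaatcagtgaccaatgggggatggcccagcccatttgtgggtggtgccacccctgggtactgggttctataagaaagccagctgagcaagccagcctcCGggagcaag
Over the 250 bases before each start, the first window had a GC content of 82.4% with 43 CG dinucleotides and the second 50.8% with 3, where the median over 32851 such windows of all genes was 52.4% with 6. Which of the starts a probe set follows was not analysed here.

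**Figure D3:**
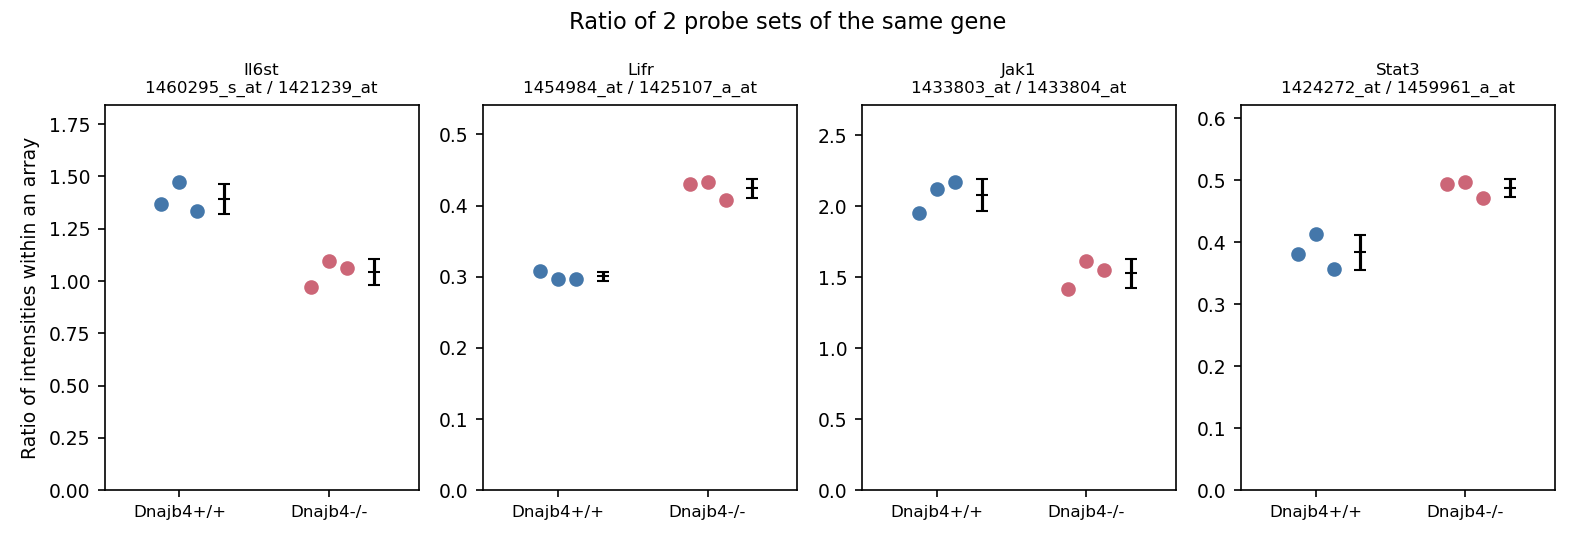
Ratio of the linear intensities of a pair of probe sets of the same gene within each array (y axis, from 0), for the 4 members whose probe sets differed, with Dnajb4+/+ in blue, Dnajb4-/- in red and the mean and SD beside the points. The Lifr ratio lies at 0.296 to 0.308 and then at 0.408 to 0.433. The Stat3 ratio also rises, and the ratios of Jak1 and Il6st fall, all without overlap. The pairs were picked by their differences in these arrays, so the gaps are a description only.

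Il6st, on chr13:112464070-112506860, encodes gp130, the chain that all receptors of this family use. Its gene-level signal was 213, 213 and 218 in Dnajb4+/+ and 199, 196 and 204 in Dnajb4-/- livers, without overlap. The log2 difference of -0.10 (95% interval -0.19 to -0.016) did not pass the test (adjusted p = 0.115). It did pass when only the brighter genes were tested (adjusted p = 0.0347), and when 16 was added before log2 (0.0472). Of its 4 probe sets, 1460295_s_at fell from 100, 103 and 104 to 78.4, 79.9 and 83.5. Its difference of -0.35 in log2 had a standard error of 0.05 (adjusted p = 0.00670) and was called under all 14 alternatives run for probe sets. The ending _s_at marks a probe set that can read transcripts of more than a single gene. The brightest, 1452843_at, read 678, 655 and 675 and then 599, 602 and 640 (-0.13, adjusted p = 0.165), and passed in 2 of the 14 alternatives. The other two differed by -0.016 and 0.070, with overlap, and did not pass (adjusted p = 0.869 and 0.545). The ratio of 1460295_s_at to 1421239_at, the only one of the 4 with a mean above that of Dnajb4+/+, fell from 1.39 ± 0.0727 to 1.04 ± 0.0635 (SD, n = 3).

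Il6ra, on chr3:89869324-89913196, encodes the chain that binds interleukin 6 itself. Its signal was 348, 353 and 352 in Dnajb4+/+ and 339, 355 and 354 in Dnajb4-/- livers. The genotypes overlapped, and the log2 difference was -0.0065 with a 95% interval of -0.097 to 0.084 (adjusted p = 0.930). Its probe sets differed by 0.036 and -0.049, and neither passed. Il6ra lies on the chromosome of Dnajb4, 62.3 megabases from it.

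Osmr, on chr15:6813568-6874968, encodes the chain specific to oncostatin M. Its gene-level values of 19.4 to 22.8 in Dnajb4+/+ and 21.9 to 22.7 in Dnajb4-/- livers overlapped (log2 difference 0.078, 95% interval -0.068 to 0.22, adjusted p = 0.454). Of its 3 probe sets, 2 read 9.25 to 13.1 in all arrays, not far above the lowest values of the table, which lie between 3.90 and 4.21. The third, 1418674_at, read 84.1, 84.7 and 73.3 and then 88.2, 97.5 and 90.7, without overlap, and did not pass (0.19, adjusted p = 0.154).

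No Janus kinase gene passed the test in limma, and the methods' t-test called none. In limma, 1 of the 3 had an unadjusted p under 0.05, as had 5370 of all 18193 genes. Jak1, on chr4:101151974-101265282, the kinase most used by gp130 receptors, read 352, 344 and 361 in Dnajb4+/+ and 312, 338 and 329 in Dnajb4-/- livers. The groups did not overlap, and the log2 difference was -0.11 (95% interval -0.22 to -0.0035, adjusted p = 0.158). The difference stood in probe set 1433803_at, which read 372, 374 and 402 and then 268, 317 and 301, a log2 change of -0.38 with a standard error of 0.07 (adjusted p = 0.0236). That call was lost when any Dnajb4+/+ replicate was left out (adjusted p = 0.0637, 0.0571 and 0.0816 for 1, 2 and 3), and when Dnajb4-/- replicate 1 or 3 was (0.0510 and 0.0625). It was also lost with the methods' t-test (adjusted p = 0.0812) and the replicate block (0.0545). The other two probe sets of Jak1 overlapped, with log2 differences of -0.026 and 0.070 (adjusted p = 0.761 and 0.436). The ratio of 1433803_at to 1433804_at fell from 2.08 ± 0.116 to 1.53 ± 0.101 (SD, n = 3).

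Jak2, on chr19:29251803-29313095, also serves the receptor of growth hormone. It read 129, 125 and 127 in Dnajb4+/+ and 114, 129 and 128 in Dnajb4-/- livers, where Dnajb4-/- replicate 1 was the low array. The log2 difference was -0.040 (95% interval -0.17 to 0.093, adjusted p = 0.684). Tyk2, on chr9:21104068-21131393, which also serves interferon receptors, read 111, 123 and 117 and then 113, 111 and 119, with overlap (-0.029, 95% interval -0.15 to 0.097, adjusted p = 0.766). The 2 probe sets of each of these kinases did not differ from each other by the F test (adjusted p = 0.864 and 0.434).

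Stat3, on chr11:100886806-100939594, encodes the transcription factor on which these receptors converge. Its gene-level signal was 183, 183 and 179 in Dnajb4+/+ and 187, 184 and 185 in Dnajb4-/- livers. The Dnajb4-/- arrays all lay above the others, by little, and the log2 difference of 0.029 (standard error 0.04, 95% interval -0.055 to 0.11) did not pass (adjusted p = 0.646). It was between 0.018 and 0.098 under the 17 alternatives and passed under none, with the lowest adjusted p at 0.201.

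Behind this mean, the Stat3 probe sets moved in different directions. The brightest, 1426587_a_at, read 982, 959 and 952 in Dnajb4+/+ and 1030, 980 and 1041 in Dnajb4-/- livers (0.076, adjusted p = 0.371). The next, 1460700_at, read 810, 799 and 801 and then 822, 809 and 794 (0.0087, adjusted p = 0.927). The genotypes overlapped in both. The dimmer probe sets did not overlap, and neither passed on its own. Probe set 1459961_a_at was lower, at 61.0, 59.4 and 61.4 and then 54.1, 54.0 and 54.6 (-0.16, adjusted p = 0.0662), and passed with the methods' t-test, with 16 added, and when only the brighter probe sets were tested. Probe set 1424272_at was higher, at 23.2, 24.5 and 21.9 and then 26.7, 26.8 and 25.7 (0.19, adjusted p = 0.0868). The ratio of 1424272_at to 1459961_a_at rose from 0.384 ± 0.0280 to 0.487 ± 0.0140 (SD, n = 3).

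Socs3, on chr11:117966079-117970336, is the inhibitor that gp130 signaling itself induces. Its gene-level signal was 203, 195 and 201 in Dnajb4+/+ and 162, 171 and 170 in Dnajb4-/- livers. Each Dnajb4-/- array lay below each Dnajb4+/+ array. The change was -0.25 in log2 with a standard error of 0.04 (adjusted p = 0.00887). The call was kept without any single array, with a highest adjusted p of 0.0412, and its 3 probe sets did not differ from each other in size (F test, adjusted p = 0.806).

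The Socs3 probe set 1455899_x_at read 345, 310 and 346 and then 274, 264 and 273 (-0.30, standard error 0.06, adjusted p = 0.0232). Probe set 1416576_at read 167, 181 and 158 and then 129, 158 and 143 (-0.24, adjusted p = 0.140). Probe set 1456212_x_at read 145, 133 and 148 and then 119, 121 and 126 (-0.21, adjusted p = 0.0635). Of the 14 alternatives run for probe sets, 5 called 1456212_x_at and 2 called 1416576_at. The genotypes of all 3 were apart, although the highest Dnajb4-/- array of 1416576_at almost touched the lowest Dnajb4+/+ array. The call of 1455899_x_at was lost when Dnajb4+/+ replicate 1 or 3 was left out (adjusted p = 0.0823 and 0.0799), or any Dnajb4-/- replicate (0.0650, 0.0778 and 0.0662 for 1, 2 and 3). The methods' t-test (adjusted p = 0.0584) and the replicate block (0.0585) ended it too. The ending _x_at marks probe sets with oligonucleotides that can match other sequences as well. With such probe sets left out, Socs3 rested on 1416576_at and did not pass (-0.24, adjusted p = 0.121).

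A sequence of Socs3 is shown because the gene is a STAT3 target and was the member that fell. It precedes the start site in RefSeq's promoter table, which lies 970 bases inside the 5′ end of the gene span given above, so it is upstream of that start and not of the whole span. The sequence before that 5′ end was not analysed here, nor whether the marked match is a known STAT site. STAT dimers bind the palindrome TTCNNNGAA, which reads the same on both strands. In the 250 bases before that start it occurred once, between 154 and 146 bases upstream, and capitals mark it (GRCm38.p6, minus strand, 5′ to 3′).
Socs3, chr11:117969367-117969616: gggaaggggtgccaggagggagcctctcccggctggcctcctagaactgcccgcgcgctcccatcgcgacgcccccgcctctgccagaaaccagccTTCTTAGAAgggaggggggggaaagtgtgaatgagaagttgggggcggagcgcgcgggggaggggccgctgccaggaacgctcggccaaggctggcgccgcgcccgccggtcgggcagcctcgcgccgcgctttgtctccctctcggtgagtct
Of 11 windows of the 10 members, this was the only window with the motif, which 7.02% of all 32851 windows of this length held. A match of letters is a description and no evidence of binding in these livers.

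Socs1, on chr16:10783808-10785536, inhibits the kinases directly and is better known from interferon signaling. It has 1 probe set, which read 14.6, 15.1 and 15.3 in Dnajb4+/+ and 14.5, 13.7 and 14.5 in Dnajb4-/- livers. These values are dim, at the 29.7th percentile of all probe sets by mean level. The genotypes did not overlap by a narrow margin, and the log2 difference of -0.076 (95% interval -0.18 to 0.025) did not pass (adjusted p = 0.293).

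The other genes of the pathway were 102 measured genes in 7 lists. Of these, 11 were called higher and 25 lower, with a median log2 difference of -0.045. Of all genes, 5.09% were called higher and 9.57% lower, with a median of 0.0075, which stands beside each list below. The lists were chosen with earlier results of these data known. Of 7 measured ligands of the IL-6 family, 1 was lower, Ctf1, which encodes cardiotrophin 1, from 152 ± 3.36 to 131 ± 8.26 (SD, n = 3; -0.21, adjusted p = 0.0420). Of 17 alternatives, 10 ended that call, among them leaving out any Dnajb4+/+ replicate, or number 1 or 2 of Dnajb4-/-, and quantile normalization. Il6, named here outside the rule for named genes and after its values were seen, read 6.83 ± 0.736 and 6.58 ± 0.479 (SD, n = 3), close to the lowest values of the table, and did not pass (adjusted p = 0.735). Of 4 further receptor genes limma called none, with none under an unadjusted p of 0.05 and none by the methods' t-test. The farthest from 0 were the IL-12 receptor genes Il12rb2 (0.18, adjusted p = 0.375) and Il12rb1 (-0.12, adjusted p = 0.479).

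Of 6 other measured JAK and STAT genes, Jak3, a kinase of lymphoid cells, and Stat2, a STAT of the interferon response, were lower (-0.34 and -0.20, adjusted p = 0.0345 and 0.0393). Neither call was stable. Leaving out any Dnajb4-/- replicate ended both calls, as did Dnajb4+/+ replicate 1, Dnajb4+/+ replicate 2 (Jak3) or 3 (Stat2), the methods' t-test and the replicate block. Of 19 other negative regulators, 2 were higher and 1 was lower. Socs2, the SOCS gene that growth hormone induces through STAT5, rose from 44.6 ± 0.919 to 62.0 ± 1.51 (SD, n = 3; 0.48, adjusted p = 5.18e-04). Cish, another STAT5 target of the SOCS family, rose from 299 ± 16.6 to 394 ± 15.2 (0.40, adjusted p = 0.00397). Both thus moved opposite to Socs3, and both kept their call under all 17 alternatives. The size of the Socs2 rise ranged from 0.28 to 1.28 over them, with 1.28 when only its brightest probe set was used. Sh2b3, an adaptor that restrains Jak2, was lower (-0.29, adjusted p = 0.0131), but did not pass with the methods' t-test (adjusted p = 0.0506).

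Of 15 adaptors and cofactors, 4 were higher and 1 was lower. Hsp90aa1, a chaperone of kinases, rose from 274 ± 4.61 to 350 ± 8.15 (SD, n = 3; 0.35, adjusted p = 0.00163), and did not pass when probe sets ending in _s_at, _x_at or _a_at were left out (0.13). The coactivator gene Crebbp (0.22, adjusted p = 0.0173) and Ndufa13, a subunit of the respiratory chain that also binds STAT3 (0.16, adjusted p = 0.0345), were higher. The call of Crebbp ended when Dnajb4+/+ replicate 2 or 3, or number 2 of Dnajb4-/-, was left out, and that of Ndufa13 when any single array was. The replicate block ended both. Gab1, an adaptor that links gp130 to the MAP kinase branch, was lower (-0.28, adjusted p = 0.00802). It did not pass with its brightest probe set alone or when its probe sets were averaged before log2, and was as close to 0 as -0.099.

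Genes known as STAT3 targets among transcription factors and other regulators moved both ways, with 4 of 26 higher, 6 lower and 16 not called. Myc, a driver of cell growth, read 151 ± 11.2 and then 254 ± 6.19 (SD, n = 3; 0.76, adjusted p = 4.45e-04). Junb, an AP-1 factor induced at once by gp130 signals, fell from 162 ± 10.6 to 101 ± 6.80 (-0.68, adjusted p = 0.00119). Ccnd1, the gene of cyclin D1, was lower (-0.67, adjusted p = 1.58e-04), as was Birc5, the gene of survivin (-0.64, adjusted p = 0.0155), whose call was lost without Dnajb4+/+ replicate 3 and with the methods' t-test (adjusted p = 0.0888). The median of the list was -0.030. With 4 calls higher and 6 lower, the called genes of this list did not share a direction. Of all genes, 14.7% were called in either direction.

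The acute phase genes moved mainly down. Of 25 measured, 14 were lower, 1 was higher (A2m) and 10 were not called, where 9.57% of all genes were lower. The 10 lay between -0.11 (Cfb) and 0.084 (Cp) in log2. Among them, named outside the rule for named genes, were Fga, Fgb, Fgg, Hp, Hpx and Crp. The list also counts metallothionein genes, beside those of blood proteins. The metallothionein genes Mt2 and Mt1, which buffer zinc, fell from 3354 ± 42.1 to 375 ± 6.09 and from 1129 ± 38.6 to 284 ± 5.56 (SD, n = 3; -3.16 and -1.99, adjusted p = 6.54e-08 and 8.30e-07). Lcn2, the gene of the iron-sequestering lipocalin 2, differed by -2.09 (adjusted p = 2.19e-06), and Saa2, the gene of a serum amyloid A, fell from 3424 ± 130 to 968 ± 50.0 (-1.82, adjusted p = 4.02e-06). The median of the list was -0.14, and these 4 genes kept their calls under every alternative in which they were measured.

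**Figure D4:**
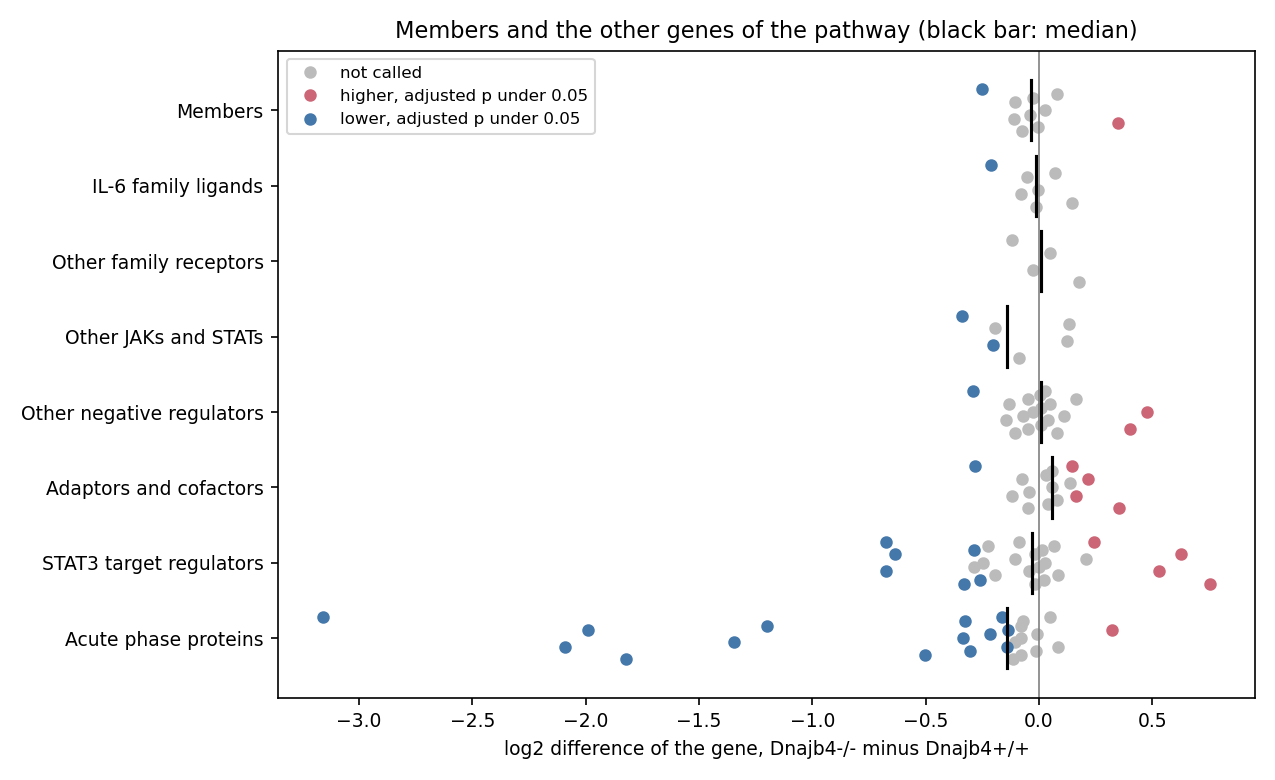
Log2 difference of each measured gene (x axis, Dnajb4-/- minus Dnajb4+/+) for the 10 members and the 7 lists of other pathway genes, with called genes in red (higher) or blue (lower), the rest in grey and a black bar at each list's median. The members lie between -0.25 and 0.35, and the acute phase list reaches down to -3.16, which is the metallothionein gene Mt2.

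Markers of some other cell types also differed between the genotypes, where 5.09% of all genes were called higher and 9.57% lower. Of 12 markers of Kupffer cells and macrophages, 11 were lower in Dnajb4-/- livers, among them Cd68 and Vsig4, with a summed level of 6886 to 7278 in Dnajb4+/+ and 5256 to 5538 in Dnajb4-/- livers. Of 8 endothelial markers, 5 were lower, among them Stab2 and Lyve1 (sums of 1652 to 1736 and 1435 to 1520), and all 8 markers of skeletal muscle were lower (567 to 629 and 219 to 238). Of 9 lymphocyte markers limma called none, and neither did the methods' t-test (sums of 228 to 239 and 240 to 248). By limma 2 of the 9 lay under an unadjusted p of 0.05, as did 5370 of all 18193 genes. Of 7 neutrophil markers 2 were lower. Of 9 markers of stellate cells and fibroblasts 1 was lower, of 5 cholangiocyte markers 1 was higher, and of 4 erythroid markers 1 was lower. No marker was at 0, as GCRMA values have a floor. In whole liver, fewer cells of a type and less RNA per cell cannot be told apart. Of 12 genes higher in female liver, 11 were lower (9617 to 10040 and 499 to 516), and of 11 genes higher in male liver, 7 were higher and 1 was lower (32405 to 32906 and 44720 to 45640). Of 17 clock genes, 11 were lower and 5 were higher, led by Dbp and Ciart (5180 to 5406 and 3205 to 3279), and the hour at which livers were taken is not given in the sources used here. The ratios of 3' to 5' signal did not overlap between the genotypes either, so RNA integrity and genotype cannot be told apart. The part of cell makeup, sex of the RNA, time of day and RNA integrity in the differences reported here, those of Lifr and Socs3 included, was not tested. Nor was that of RNA integrity in the unlike probe sets of Lifr, Il6st, Stat3 and Jak1.

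The genes with the profile most like that of a member were sought among 9095 genes above the median level, by the root mean square difference of centred log2 values over the 6 arrays. Closest to Lifr were the efflux pump gene Abcg2 (0.016), the cholesterol synthesis gene Hmgcs1 (0.017) and Hddc3 (0.018), which were all called higher, with log2 differences of 0.34, 0.35 and 0.34. Closest to Stat3 were Cd81 (0.0096), Ttr (0.011) and Tada2b (0.011), none of which passed the test. With 6 arrays and so many genes, such close profiles are a description only.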

How the data were processed

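Liver RNA of 3 Dnajb4+/+ and 3 Dnajb4-/- mice was hybridised to Affymetrix Mouse Genome 430 2.0 arrays. The deposited intensities were made by the authors in GeneSpring with GCRMA, which corrects background by probe GC content, normalizes between arrays and summarises each probe set, followed by global median centring. Versions are not given in the sources used here. Scanner values and detection calls were not used. Of 45101 probe sets, 64 controls were left out. A single symbol was given for 34945, several for 932 and none for 9160, by a platform annotation that can be old. The mean of the log2 values of its probe sets was taken for each of 18193 genes. Tests were run with limma 3.58.1 in R 4.3.3 (lmFit, default eBayes), two-sided, with Benjamini-Hochberg adjustment over all genes or all probe sets. Differences are Dnajb4-/- minus Dnajb4+/+. The scripts were tested on simulated data. Same-numbered arrays did not deviate together (correlations of -0.14 to 0.0091), so the replicate number was used as a block only in an alternative. The members and lists were chosen with earlier results of these data known. All members are named, with up to 4 called genes of each pathway list by size of difference, or 2 where none was called, and up to 2 genes of other lists. Of 246 listed genes, 226 could be measured. Promoter sequences are RefSeq's of GRCm38.p6, and all 10 members were matched by symbol. Alternatives covered normalization, centring, dim features, an offset of 16, the variance model, the methods' t-test, the gene-level value, leaving out each replicate, and a replicate block. Python 3.11.15 with matplotlib 3.10.9 drew the figures.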

Additional observations from a re-analysis of the deposited data

How the results depend on the processing

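The number of member genes called higher was 1 and that of genes called lower 1 under most alternatives. With the brightest probe set in place of the mean, 0 were higher (limma), as Lifr did not pass (0.081, adjusted p = 0.231). When probe sets ending in _s_at, _x_at or _a_at were left out, 0 were lower (limma), as Socs3 did not pass (-0.24, adjusted p = 0.121). With only the brighter genes tested, and with an offset of 16, 2 were lower, with Il6st added. The count of called member probe sets, 5, was 9 with an intensity trend, 9 with trend and robust settings, 3 with the replicate block, and 3 to 5 without any single replicate. The 4 members whose probe sets differed stayed at 4 under all alternatives run. Over all genes, 2667 calls became 1529 with the replicate block and 1552 to 2009 without a replicate. The share of higher calls, 34.7%, was 44.5% with quantile normalization and 50.5% with centring on brighter probe sets, where the median of all genes moved from 0.0075 to 0.040. The 11 pathway genes called higher were 7 with the replicate block, 6 when those probe sets were left out and 7 to 9 without a replicate, and the 25 called lower were 19 to 21 without a replicate. Under the replicate block the 2 probe set calls that were lost were those of Jak1 (adjusted p = 0.0545) and Socs3 (0.0585), and no call of a member gene changed. No called difference of a member changed its sign. The cause of these changes was not tested, and the fits with a replicate left out also had fewer arrays.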
